A study of Homo sapiens with 2 samples.

Results

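Mitochondrial fatty acid oxidation was examined through 10 genes chosen by their known role in the pathway: CPT1A, CPT2, SLC25A20, ACADVL, ACADM, ACADS, HADHA, HADHB, HADH and ETFDH. They were found by NCBI gene ID in the tables of both libraries, as 10 of the 27685 gene IDs listed there and of the 14078 genes counted as measured, with 1 TPM or above in either library. TPM, the abundance of a transcript per 1000000, is a level corrected for transcript length and relative to all other transcripts of the same library. The study asked how metformin alters the transcripts of H1299 cells, an established human line from a non-small cell carcinoma of the lung. The control group was 1 library of cells with no treatment, and the metformin group was 1 library of cells given 5 mM of the drug. Both came from the same line at the same stated range of passages. How long the drug was given is not stated in the labels. With 1 library per group no test was possible, no p-value is given, and no difference below has a replicate check.

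Fatty acids enter the mitochondrial matrix as carnitine esters. CPT1A on the outer membrane makes the ester, SLC25A20 carries it across the inner membrane, and CPT2 turns it back into acyl-CoA. Each round of the oxidation spiral then takes a dehydrogenase matched to the chain length, a hydratase, another dehydrogenase and a thiolase, and the electrons of the first step pass through the electron transfer flavoprotein and ETFDH to ubiquinone. Malonyl-CoA, the product of acetyl-CoA carboxylase, blocks CPT1A, and AMPK, a kinase activated by metformin in many cells, relieves that block by phosphorylating the carboxylase. Spiral and entry genes are known targets of the nuclear receptors PPAR and ERR and of their coactivator PGC-1.

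The markers chosen to check the cell line were keratins, vimentin and genes of other cell types. KRT8 had 269 TPM in control against 521 in metformin, KRT18 had 553 against 954, and VIM had 4378 against 4962. CDH2, N-cadherin, had 22.9 TPM in control against 19.1. The epithelial markers EPCAM and CDH1 and the lung markers NKX2-1 and SFTPC were at or below 0.491 TPM in both libraries, and so were the blood marker PTPRC and the endothelial markers PECAM1 and VWF. The fibroblast markers COL1A1 and COL3A1 were at or below 0.342 TPM. CD68, a lysosomal protein of macrophages that other cells also make, was listed at 148 and 115 TPM. Estimated depth was 28.7 M read pairs for control and 31.7 M for metformin.

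None of the 10 genes was higher or lower by 2-fold. On the scale of log2(TPM + 1), metformin minus control, the differences ran from -0.31 for HADH to 0.33 for ACADS, with a median of -0.07. Over all measured genes the median was -0.08. Among those, 1.51% were higher by 2-fold or more and 1.24% lower. With a smaller step, higher by 25% or more or lower by 20% or more on the same scale (called the smaller step below), 1 of the 10 genes was higher, which was ACADS, and 0 were lower, beside 13.7% and 22.1% of measured genes. Below 0 lay 7 of the 10 genes, beside 59.7% of measured genes, and above 0 lay 3, beside 40.3%. The balance depended on the scaling. Among measured genes past the smaller step, 38.3% were higher as deposited, 55.0% after centring on the median difference of genes with at least 10 TPM in each library, -0.09, and 51.2% with trimmed mean scaling. Among those past 2-fold the shares were 54.9%, 70.3% and 65.1%. With either scaling 5 of the 10 genes lay above 0. The summed level of the 10 transcripts was 748 TPM in control against 755 in metformin, a ratio of 1.01. The size of the difference without its sign had a median of 0.12 over the 10 genes and 0.23 over the measured genes. Over the 6819 protein-coding genes whose mean level lay within the range of the 10, that median was 0.21. In the order of all measured genes by difference, 86.9% lay below ACADS, 75.3% below ACADVL and 23.3% below HADH. The other 7 stood near the middle of that order, from ACADM with 39.8% of measured genes below it to HADHB with 65.9%.

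**Figure D1:**
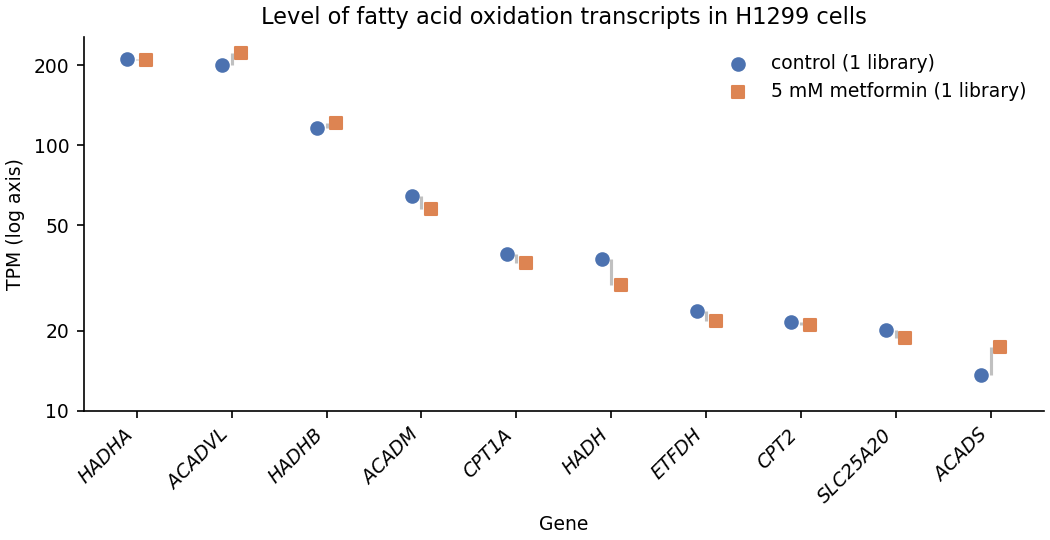
Level in TPM (log axis) of each of the 10 transcripts in the control library (circles) and the metformin library (squares), in order of the control level. HADHA, ACADVL and HADHB lie between 116 and 223 TPM in both libraries, and ACADVL passes HADHA in metformin.

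In control the levels spanned a 15.5-fold range. HADHA was the highest at 212 TPM, followed by ACADVL at 201, HADHB at 116 and ACADM at 64.4. CPT1A at 39.0 and HADH at 37.1 were close neighbours, as were ETFDH at 23.7, CPT2 at 21.6 and SLC25A20 at 20.1, and without replicates the order within such neighbours cannot be judged. ACADS was the lowest at 13.6. The 3 highest transcripts held 70.6% of the summed level in control and 73.2% in metformin. In metformin ACADVL stood above HADHA, ACADS was still the lowest and the range was 12.8-fold.

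The promoters of 4 of the genes are shown because they belong to the 2 subunits of 1 enzyme, which are encoded head to head and differed little between the libraries, and to the genes at either end of the differences. HADHA and HADHB face away from each other on chromosome 2. In RefSeq on GRCh38 their start sites lie 306 bases apart, and 194 bases of the 250 upstream of one are also upstream of the other, read on the opposite strand. The sequences are those 250 bases before each start, from RefSeq on GRCh38, written 5′ to 3′ on the strand of the gene, and capitals mark the GC box GGGCGG (or CCGCCC on the other strand) and the CCAAT box.
HADHA (chr2:26244633-26244882, minus strand): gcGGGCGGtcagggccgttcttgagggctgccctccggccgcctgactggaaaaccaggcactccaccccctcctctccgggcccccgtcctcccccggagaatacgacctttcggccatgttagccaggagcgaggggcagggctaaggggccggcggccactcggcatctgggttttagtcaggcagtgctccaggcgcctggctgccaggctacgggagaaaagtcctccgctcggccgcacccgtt
HADHB (chr2:26244689-26244938, plus strand): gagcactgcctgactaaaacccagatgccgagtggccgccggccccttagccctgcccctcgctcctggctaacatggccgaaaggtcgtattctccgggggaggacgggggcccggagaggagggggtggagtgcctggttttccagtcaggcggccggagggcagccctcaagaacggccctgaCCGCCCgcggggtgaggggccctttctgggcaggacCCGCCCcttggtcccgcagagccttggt
ACADS (chr12:120725576-120725825, plus strand): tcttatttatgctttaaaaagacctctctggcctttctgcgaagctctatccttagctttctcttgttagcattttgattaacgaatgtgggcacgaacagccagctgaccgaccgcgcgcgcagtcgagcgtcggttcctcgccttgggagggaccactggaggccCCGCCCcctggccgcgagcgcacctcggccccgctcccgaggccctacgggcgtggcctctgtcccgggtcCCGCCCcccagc
HADH (chr4:107989639-107989888, plus strand): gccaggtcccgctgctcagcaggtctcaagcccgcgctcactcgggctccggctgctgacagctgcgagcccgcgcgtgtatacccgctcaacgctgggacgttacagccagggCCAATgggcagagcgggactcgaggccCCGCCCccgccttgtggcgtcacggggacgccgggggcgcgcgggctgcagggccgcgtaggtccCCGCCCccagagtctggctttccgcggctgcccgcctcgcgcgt

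The capitals of HADHA and the first capitals of HADHB are the same GC box, 248 bases before the start of HADHA and 64 before that of HADHB. The table held 11 upstream windows for 9 of the 10 genes, all but ETFDH, and 8 motifs were searched on both strands. A GC box was found in 8 of the 11 windows, 1 for each of 8 genes, and in 42.6% of the 35116 windows of the table. CPT1A was the gene with a window but no GC box in it. The windows were not matched to the starts of the deposited gene models, so another start of CPT1A was not searched. A CCAAT box was found in the HADH window alone among the 11, and in 32.0% of all windows. The ERR half-site AAGGTCA, the NRF1 core GCGCATGCG, the CRE TGACGTCA, the ATF4 composite site TGATGCAA and the E-box CACGTG were in 0 of the 11 windows. Of all windows they were in 3.44%, 1.64%, 1.65%, 0.772% and 6.34% in that order. The PPAR element, searched as a pair of AGGTCA in the same direction 1 base apart, was in 0 of the 11 and in 0.0171% of all windows, and its letters can overlap those of the ERR half-site. A match is a run of letters only, and its absence says only that those letters are not in these 250 bases.

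Of the carnitine shuttle, all 3 genes had slightly lower TPM in metformin, though the difference of CPT2 turned from -0.03 to 0.05 with median centring and to 0.04 with trimmed mean scaling. CPT1A, the liver-type carnitine palmitoyltransferase and the regulated entry step (NCBI gene 1374, hg19 chromosome 11 from 68522088 to 68609399, minus strand), was listed at 39.0 TPM in control against 35.9 in metformin. The ratio was 0.922, with a 95% counting interval of 0.873 to 0.975. Such intervals are exact (Clopper-Pearson) and cover the counting of reads only, not the variation between cultures. SLC25A20, the carnitine-acylcarnitine carrier (NCBI gene 788, chromosome 3 from 48894356 to 48936426, minus strand), had 20.1 TPM in control against 18.7, a ratio of 0.933 (0.815 to 1.06). CPT2, the inner-membrane transferase (NCBI gene 1376, chromosome 1 from 53662101 to 53679869, plus strand), had 21.6 TPM in control against 21.1, a ratio of 0.975 (0.880 to 1.08). As deposited, the intervals of SLC25A20 and CPT2 included 1, so the counting of reads alone could give differences of that size. With median centring or trimmed mean scaling, the interval of CPT1A included 1 as well. Exons of CPT2 overlap those of CZIB on the other strand.

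The 3 acyl-CoA dehydrogenases, which open the spiral for long, medium and short chains, did not share a direction. ACADVL, the very long chain enzyme of the inner membrane (NCBI gene 37, chromosome 17 from 7120444 to 7128586, plus strand), was listed at 201 TPM in control against 223 in metformin. Its ratio was 1.11 (1.07 to 1.15). ACADM, the medium chain enzyme whose defects are the most common inherited disorder of the pathway (NCBI gene 34, chromosome 1 from 76190032 to 76229363, plus strand), had 64.4 TPM in control against 57.4, a ratio of 0.891 (0.834 to 0.952). ACADS, the short chain enzyme (NCBI gene 35, chromosome 12 from 121163541 to 121177811, plus strand), was listed at 13.6 and 17.4 TPM. Its ratio of 1.28 was the highest of the 10, and with an estimated 308 and 446 read pairs it had the widest interval, 1.10 to 1.49. ACADVL stood at 3.11 times the level of ACADM in control and 3.88 times in metformin, and 14.7 and 12.8 times that of ACADS. In GENCODE some exons of ACADVL overlap exons of DLG4 on the other strand, and some exons of ACADM overlap those of RABGGTB on the same strand, so reads in those exons can be exchanged.

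HADHA and HADHB encode the alpha and beta subunits of the mitochondrial trifunctional protein, which carries out the hydratase, hydroxyacyl-CoA dehydrogenase and thiolase steps on long chains. HADHA (NCBI gene 3030, chromosome 2 from 26413504 to 26467594, minus strand) was listed at 212 TPM in control against 209 in metformin, a ratio of 0.989 (0.958 to 1.02), and its log2 difference turned from -0.02 to 0.07 with median centring and to 0.06 with trimmed mean scaling. HADHB (NCBI gene 3032, chromosome 2 from 26467616 to 26513333, plus strand) had 116 TPM in control against 121, a ratio of 1.04 (0.989 to 1.09). As deposited both intervals included 1, and that of HADHA was the narrowest of the 10. HADHA stood at 1.82 times the level of HADHB in control and 1.73 times in metformin. In the deposited tables, on hg19, only 21 bases lie between the gene models.

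HADH, the hydroxyacyl-CoA dehydrogenase for medium and short chains (NCBI gene 3033, chromosome 4 from 108910870 to 108956331, plus strand), was listed at 37.1 TPM in control against 29.7 in metformin. Its ratio of 0.801 (0.724 to 0.886) was the lowest of the 10. It overlaps the antisense RNA CYP2U1-AS1. ETFDH, which hands the electrons of the dehydrogenases to ubiquinone (NCBI gene 2110, chromosome 4 from 159593253 to 159629865, plus strand), was listed at 23.7 and 21.7 TPM. Its ratio was 0.914 (0.832 to 1.002) and its upper bound lay just above 1. Its exons overlap those of PPID and C4orf46 on the other strand. In all, the interval lay below 1 for CPT1A, ACADM and HADH, above 1 for ACADVL and ACADS, and included 1 for the other 5. Of the 13521 measured genes with a known transcript length it lay below 1 for 41.7% and above 1 for 23.8%, so these counts of 3 and 2 in 10 were near the background. The calls depended on the scaling. With median centring and with trimmed mean scaling alike, HADH was the 1 gene with its interval below 1, and HADHA and HADHB joined ACADVL and ACADS above 1. Of the measured genes, 31.7% then lay below 1 and 31.5% above with median centring.

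**Figure D2:**
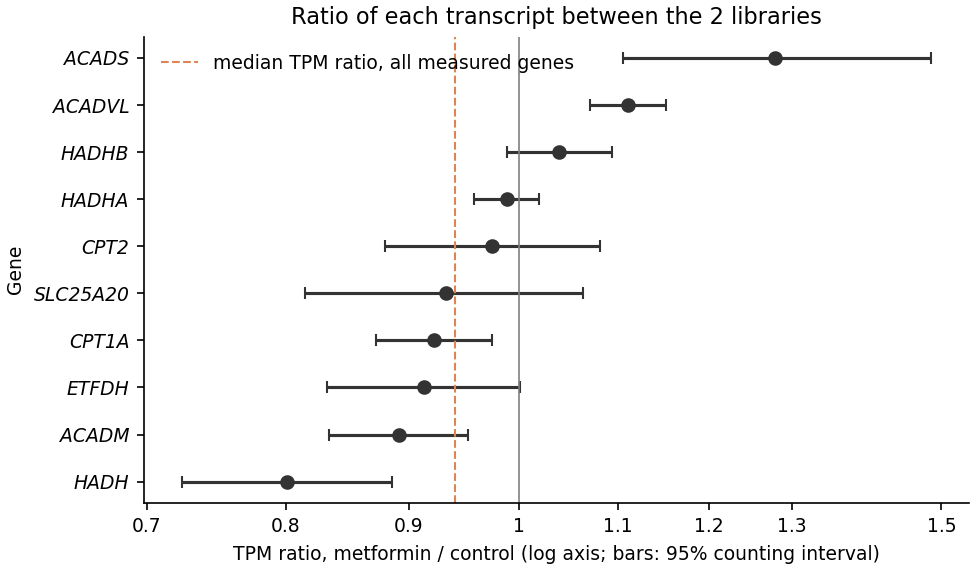
TPM ratio of metformin over control (log axis) for each gene, with the exact 95% counting interval as bars. The dashed line is the median ratio of all measured genes, 0.941, and as deposited the intervals of ACADS and ACADVL are the ones that lie wholly above 1.

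The differences went with the base composition of the transcripts. Spearman's correlation between the difference and the GC content of the canonical transcript was 0.67 over the 10 genes and 0.34 over measured genes with a known sequence. Points share both libraries, so these values describe the libraries only. ACADM has the lowest GC content of the 10, 35.9%, and ACADS the highest, 63.7%. The 10% of genes with the lowest GC content, where ACADM belongs, had a median difference of -0.28, and the 10% with the highest, with ACADS, 0.08. After removal of the trend over GC content and transcript length, ACADM turned from -0.16 to 0.08, ACADVL moved from 0.15 to 0.03 and ACADS from 0.33 to 0.18. HADH moved from -0.31 to -0.28 and CPT1A from -0.11 to -0.17. Over the 10 genes the median without the trend was -0.04. The part of base composition in these differences was not tested.

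**Figure D3:**
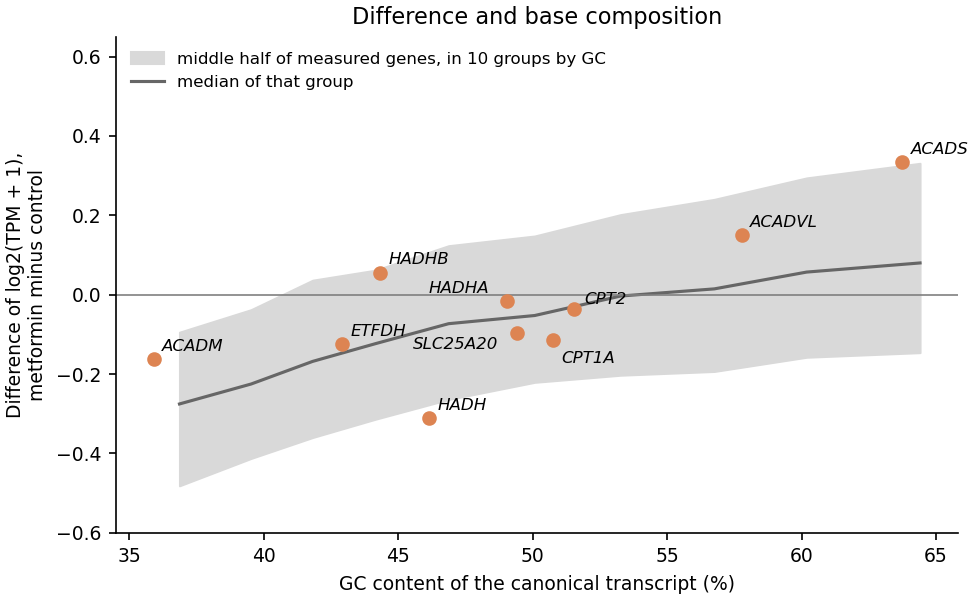
Difference of log2(TPM + 1), metformin minus control, against the GC content of the canonical transcript for the 10 genes (points), with the median (line) and the middle 50% (band) of measured genes in 10 groups by GC content. HADH, at -0.31, lies below the band, and ACADS, at 0.33, lies just above its upper edge. ACADM at the left end lies above the median of its group, -0.28.

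The genes around the 10 were taken from 11 lists set by role, some of which share a gene. In none of these lists was a gene higher or lower by 2-fold, and their medians ran from -0.09 to 0.25. By the smaller step, 13.7% of measured genes were higher and 22.1% lower. The list counts by that step are as deposited and were not recomputed with other scalings. Closest to the 10 are the other enzymes of the mitochondrial spiral, with 11 of 18 genes above 0, a median of 0.06, and 3 higher and 1 lower by the smaller step. ECHS1, the short chain hydratase that acts before HADH, had 144 TPM in both libraries, and ACAA2, a thiolase that acts after it, had 81.1 TPM in control against 78.4. At the ends of that list, ECI1 and ECHDC2, an isomerase for unsaturated chains and a hydratase-like protein, stood at 1.34 and 1.32 times control, and HSD17B10 and MCEE, a short chain dehydrogenase and methylmalonyl-CoA epimerase, at 0.851 and 0.652.

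Beside ACADVL, ACADM and ACADS, the acyl-CoA dehydrogenase family had 6 of 8 further genes above 0, a median of 0.06, and 1 higher and 0 lower by the smaller step. ACAD9, which also serves the assembly of respiratory complex I, had 67.0 TPM in both libraries, above ACADM in each. ACADL, the long chain enzyme, was far below ACADVL at 1.57 and 1.90 TPM. ACAD10 and ACAD11 stood at 1.32 and 1.18 times control, and ACAD8 and IVD, which act on branched chains, at 0.870 and 0.909.

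ETFA and ETFB, the subunits of the flavoprotein that feeds ETFDH, had 119 and 85.6 TPM in control, each above the 23.7 of ETFDH. Their ratios were 0.929 (0.886 to 0.974) and 1.02 (0.928 to 1.11), beside 0.914 for ETFDH. With ubiquinone synthesis, whose product takes the electrons from ETFDH, that list had 4 of 12 genes above 0, a median of -0.09, and 0 higher and 2 lower by the smaller step. These were ETFRF1, a regulator of the flavoprotein, at 0.584 of control (0.487 to 0.700), and the ubiquinone gene COQ3 at 0.785, while COQ5 and COQ6 stood at 1.24 and 1.12 times control.

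CPT1A was by far the highest of the 3 genes for the entry enzyme. CPT1B, the muscle form, had 5.11 TPM in control against 5.23, with a read-through model from CHKB on the same strand, and CPT1C, the brain form, 0.147 against 0.176. The list of carnitine supply and transfer had 6 of 9 measured genes above 0, a median of 0.25, and 3 genes higher and 3 lower by the smaller step. SLC22A4, another importer and 1 of the 3 higher, reached 1 TPM in metformin only, and without it the median was 0.14. CRAT, carnitine acetyltransferase, stood at 1.45 times control (1.36 to 1.53), TMLHE, the first enzyme of carnitine synthesis, at 1.39 times and SLC22A5, the carnitine importer, at 1.24 times (0.993 to 1.54), against 0.583 for SLC25A45, a mitochondrial carrier, and 0.730 for CROT, the peroxisomal octanoyltransferase.

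In the malonyl-CoA branch that gates CPT1A, 3 of 10 genes lay above 0, with a median of -0.07, and 2 were higher and 1 lower by the smaller step. The 2 were MLYCD, which degrades malonyl-CoA, at 13.5 TPM in control against 20.5, a ratio of 1.52 (1.44 to 1.60), and ACACA, the main enzyme that makes it, at 45.4 against 58.6, a ratio of 1.29. The interval of MLYCD took a GENCODE transcript of 13054 bases, and it is too narrow if the deposited gene model is shorter. In GENCODE, exons of MLYCD overlap those of OSGIN1 on the same strand. Whether the deposited model holds those exons was not checked. ACACB, the carboxylase of the outer mitochondrial membrane, had 3.72 TPM in control against 3.50, and PRKAA1 and PRKAG2, subunits of AMPK, stood at 0.786 and 0.841 of control.

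Of the regulators of oxidation genes 7 of 16 lay above 0, with a median of -0.02. By the smaller step 1 was higher and 6 lower, beside 13.7% and 22.1% of measured genes. ESRRA, at -0.32, was barely past that step as deposited, and the count was not recomputed with other scalings. PPARA and PPARD stood at 1.38 (1.21 to 1.57) and 1.19 times control, PPARGC1A, at 2.64 TPM in control, had an interval of 0.883 to 1.29, and ESRRA, NRF1 and the coactivator LPIN1 stood at 0.794 (0.725 to 0.869), 0.667 and 0.746. Exons of ESRRA, like those of CRAT and ETFRF1, overlap a gene on the other strand. PPAR targets outside the pathway divided evenly, with 4 of 8 above 0, a median of 0.01, and 2 higher and 2 lower by the smaller step. ANGPTL4, an inhibitor of lipoprotein lipase, stood at 0.553 (0.492 to 0.620), UCP2 and VLDLR at 1.65 and 1.53 times control, and PDK4 had 1.05 TPM in control against 1.03. UCP3, the other of the 2 lower, reached 1 TPM in control only, at 1.13 against 0.606, with an estimated 31.4 and 19.0 read pairs and a ratio of 0.535 (0.289 to 0.990). Without it the median of these targets was 0.04.

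Fatty acid uptake and activation had 6 of 13 measured genes above 0, a median of -0.02, and 3 higher and 2 lower by the smaller step, between ACSF2 and SLC27A1 at 1.82 and 1.47 times control and SLC27A2 and ACSL3 at 0.677 and 0.716. Peroxisomal oxidation had 13 of 19 above 0, a median of 0.09, and 2 higher and 2 lower, between SCP2 and ABCD4 at 1.56 and 1.37 times control and ABCD2 and ABCD3 at 0.515 and 0.702. Lipid droplets and lipolysis had 6 of 12 above 0, a median of 0.02, and 3 higher and 3 lower, between MGLL and PNPLA3 at 1.46 and 1.42 times control and LIPE and HILPDA at 0.548 and 0.699. Among ketone body enzymes, BDH2 and OXCT1 were lower by the smaller step, at 0.669 and 0.769 of control. In 9 of the 11 lists the differences reached further in both directions than those of the 10 oxidation genes. With median centring the medians of uptake and activation, regulators and malonyl-CoA control turned from below 0 to 0.07, 0.07 and 0.02. That of ketone body enzymes turned from -0.08 to 0.009.

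**Figure D4:**
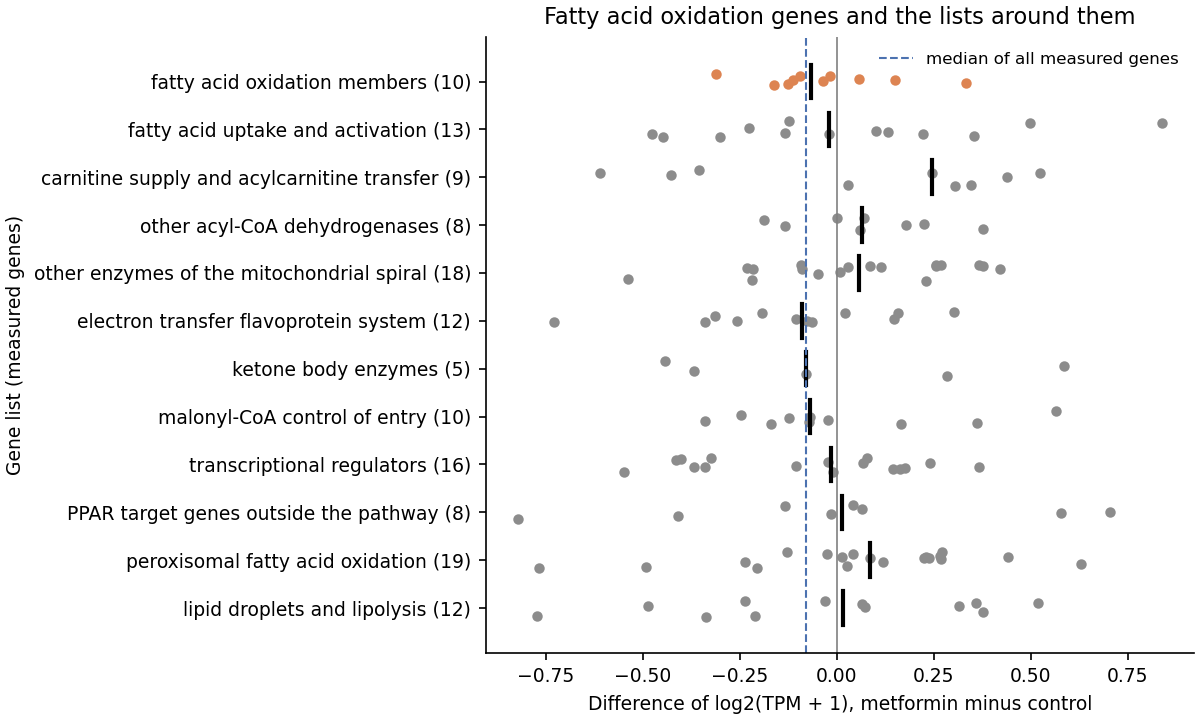
Difference of log2(TPM + 1), metformin minus control, for each measured gene of the 10 oxidation genes (first line) and the 11 lists around them, with the number of genes in brackets, a black bar at each median and a dashed line at the median of all measured genes, -0.08. The 10 genes lie between -0.31 and 0.33, and 9 of the 11 lists reach further in both directions.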

How the data were processed

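H1299 cells with no treatment and cells given 5 mM metformin were each sequenced as 1 library. Per the labels' protocols, the libraries came from a stranded mRNA kit, reads were mapped to hg19 with Bowtie2 and a NovaSeq instrument was used. Per the submitters' processing notes, Trimmomatic 0.38 and HISAT2 were used with hg19 or GRCh37. No source used here names the abundance program or says whether it used the strand.

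TPM was computed by the authors and sums to 1000000 in each library. FPKM was also deposited by the authors. Coverage, the mean read depth over exons, was deposited by the authors. Depth was estimated from the largest ratio of coverage to FPKM among rows with FPKM above 1, as 5.80 and 6.40 Gb aligned. At 202 bases per pair this is 28.7 M and 31.7 M pairs. The 202 bases were inferred as the most frequent base total of short rows, in 13 of 588 rows for control and 25 of 557 for metformin. Rows of 1 gene ID were summed. Symbols came from RefSeq on GRCh38 (names only) for 27559 of 27685 IDs. Length, GC content and exon overlaps came from GENCODE 44 on GRCh37, and promoter sequences from RefSeq on GRCh38.p14.

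Differences are log2(TPM + 1) in metformin minus the same in control, and the pseudocount of 1 understates differences of low genes. Ratios are plain TPM ratios. FPKM times the GENCODE transcript length gave the read pairs of a gene (their sum was 107% of the total in each library). From these pairs came the exact 95% interval of each ratio. Where the deposited gene model is shorter than that transcript, the pairs are overstated and the interval is too narrow. The calls and intervals were tested on read counts simulated with known folds and counting error only. The intervals assume that same error, so the test says nothing of variation between cultures. That test did not cover the estimate of read pairs from FPKM and transcript length. Python 3.11.15, pandas 2.3.3, numpy 2.4.6 and scipy 1.17.1 were used.

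The 10 genes and the 11 lists were chosen with earlier results of these data known. The text names the 10 genes, 18 further genes of the pathway and the 2 highest and 2 lowest of each list with at least 3 measured genes, and cell type markers; SLC22A4 was added after its values were seen, and some genes the rule takes are not reported here. Alternatives were pseudocounts of 0.1 and 5, no minimum and a minimum of 5 TPM, 1 TPM in both libraries, FPKM, coverage per aligned base, median centring, trimmed mean scaling, removal of a GC and length trend, and the highest row of each gene ID. The comparison of protein sequences between family members was not run.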

Additional observations from a re-analysis of the deposited data

How the results depend on the processing

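With 1 library per group these values hold for the 2 libraries only, and depth limits ACADS, SLC25A20 and CPT2 most. Under the 11 alternatives, 0 of the 10 genes was higher or lower by 2-fold, and the median of the 10 ran from -0.07 to 0.02. HADH ran from -0.32 to -0.22 and ACADS from 0.18 to 0.42, each on one side of 0 throughout. CPT1A, SLC25A20, ETFDH, ACADVL and HADHB also kept to one side. CPT2, HADHA and ACADM changed sign under some. The number of the 10 above 0, 3 as deposited, was 5 with coverage per aligned bases, median centring and trimmed mean scaling. ACADS was higher by 25% or more in the main values, but 0 of the 10 were with a pseudocount of 5 or without the GC and length trend. For carnitine supply the list median, 0.25 in the main values, ran from 0.12 to 0.33, and that of ketone body enzymes, a short list, from -0.19 to 0.28. With median centring or trimmed mean scaling of the ratios, the counting interval lay below 1 for 1 of the 10 genes, not 3, and above 1 for 4, not 2. These scaled intervals, and the minimum of 1 TPM in both libraries, were chosen after seeing the data. Over all measured genes, 213 higher and 175 lower by 2-fold became 389 and 353 with a pseudocount of 0.1, 58 and 45 with a pseudocount of 5, 121 and 115 at a minimum of 5 TPM, 131 and 115 at 1 TPM in both libraries, and 113 and 67 in FPKM, with 114 lower after median centring. For genes higher by 25% or more or lower by 20% or more, 1931 and 3111 became 1140 and 2025 with a pseudocount of 5. A larger minimum removes low genes and a larger pseudocount shrinks their differences, both by construction. Otherwise the cause was not tested. No paired analysis was possible because each group has 1 library.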
